A study of Mus musculus with 8 samples.

Results

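Kinesins are motor proteins that walk along, or take apart, microtubules using ATP. In dividing cells a set of them builds the spindle, moves chromosomes and completes cytokinesis, and many of these genes are transcribed mainly in the late part of the cell cycle. The others carry vesicles, organelles, RNA and ciliary cargo in cells that need not divide, or serve in cilia and signalling. The kinesin genes described here are all genes of the deposited table whose symbol starts with Kif or Kifc followed by a digit, which gave 43 of 22322 genes. They were put in 3 classes by textbook role: 14 mitotic kinesins, 17 transport kinesins and 12 other kinesins with ciliary, signalling or mixed roles.

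The comparison set 4 Ad-Cre libraries (a usual name for adenoviral Cre recombinase), whose label reads suv39h1 knockdown, against 4 Ad-GFP libraries (adenoviral GFP), labelled WT. Both groups were labelled as primary fibroblasts of mouse kidney. Both had also been given TGF-β (5 ng/ml, 48 hours), so no unstimulated cells enter. The labels give no allele, strain, age or number of animals, and no label says that the replicates of a group came from separate cultures or animals. The p-values therefore rest on the spread among these 8 samples alone, and that spread may be technical.

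Suv39h1, the H3K9 methyltransferase gene named in the label, was at 25.3, 22.8, 21.6 and 22.6 CPM in the Ad-Cre libraries, against 29.0, 27.8, 29.3 and 29.6 CPM in the Ad-GFP libraries. The groups did not overlap, and Ad-Cre was at 79.6% of Ad-GFP (exact permutation test, two-sided p = 0.0286, the smallest that 4 against 4 allow), so the transcript was lower and not absent. Every Ad-Cre library was deeper (18006938 to 23940043 counts) than every Ad-GFP library (15879244 to 17930632). Markers of the labelled cell type were mixed. Fn1 was at 12222 ± 102 CPM in Ad-Cre and 12272 ± 284 CPM in Ad-GFP and Vim at 167 ± 7.69 CPM in Ad-Cre and 252 ± 5.65 CPM in Ad-GFP (SD, n = 4 each), while the fibroblast markers Pdgfra (4.24 CPM in Ad-Cre and 5.14 in Ad-GFP) and Dcn (4.805 and 4.19) were low. Col1a1 was at 131 CPM in Ad-Cre and 207 CPM in Ad-GFP, and Col1a2 at 130 and 194. Col3a1 was at 43.2 CPM in Ad-Cre and 54.4 CPM in Ad-GFP, and Pdgfrb at 25.5 and 28.0. Thy1 (1.535 CPM in Ad-Cre and 7.19 in Ad-GFP) and S100a4 (1.37 and 1.46) were low, like Pdgfra and Dcn. Lum, the last of the 11 fibroblast markers listed, did not pass the filter on low counts. Of the 10 tested, 5 fell and 0 rose, against 20.5% lower and 19.8% higher over all genes tested. The 18 epithelial markers summed to 6291 to 6395 CPM in the Ad-Cre libraries and 6624 to 6845 CPM in the Ad-GFP libraries. Krt8 was at 1168 ± 17.9 CPM in Ad-Cre and 1504 ± 36.8 CPM in Ad-GFP. Cldn4 was at 1099 ± 27.0 CPM in Ad-Cre and 1141 ± 29.5 CPM in Ad-GFP. Epithelial transcripts were thus abundant in all libraries. Per length (FPKM), Krt8 was at 592 in Ad-Cre and 773 in Ad-GFP, Vim at 75.6 and 116, and Fn1 at 1545 and 1573. The kinesin levels below are those of whole libraries and cannot be assigned to fibroblasts.

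The filter on low counts kept 39 of the 43 kinesin genes and left out 4. Kif2b, a member of the depolymerase family, and Kif28 had 0 counts in all 8 libraries. Kif19a, a depolymerase of motile cilia, had 4, 4, 5 and 3 counts in Ad-Cre and 6, 11, 11 and 3 in Ad-GFP. Kif19b had at most 3 counts in any library. Levels of different genes are compared below per length, in FPKM, and each gene is compared between groups in CPM, counts scaled to library size. A gene is said to rise or fall only where it passed edgeR's quasi-likelihood test with an adjusted p under 0.05 over all 13337 genes tested. At that threshold 40.3% of all genes tested were called, 20.5% lower and 19.8% higher in Ad-Cre, and the last 2 figures are the background for the counts below.

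Transport kinesins made up most of the kinesin transcript per length. Their FPKM summed to 437 ± 10.4 FPKM in Ad-Cre and 416 ± 8.10 FPKM in Ad-GFP (SD, n = 4 each), which was 88.9 ± 0.341% in Ad-Cre and 86.9 ± 0.440% in Ad-GFP of the FPKM of all 43 genes. Mitotic kinesins summed to 19.4 ± 0.766 FPKM in Ad-Cre and 26.9 ± 1.17 FPKM in Ad-GFP, a share of 3.95 ± 0.127% in Ad-Cre and 5.62 ± 0.202% in Ad-GFP. The share of the mitotic class was thus smaller in Ad-Cre, with SDs that do not reach each other. All 43 genes together were close in both groups, at 492 ± 10.4 FPKM in Ad-Cre and 479 ± 9.04 FPKM in Ad-GFP.

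**Figure D1:**
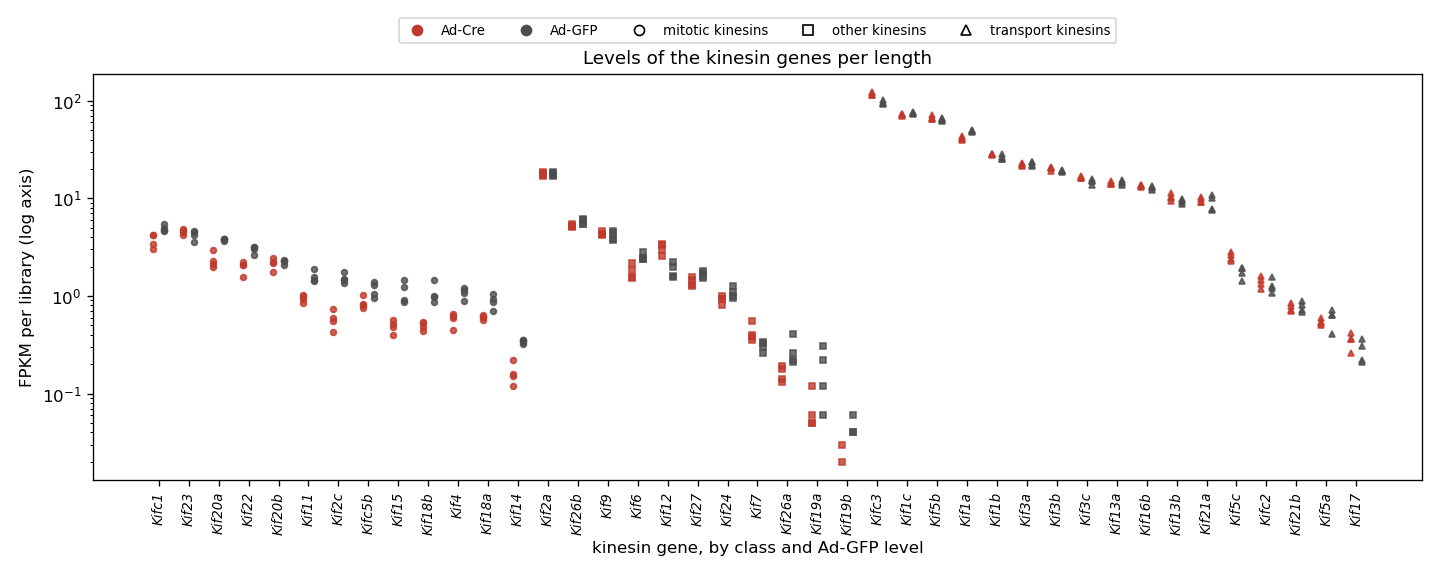
FPKM of each kinesin gene in each library on a log axis, with Ad-Cre in red to the left of Ad-GFP in grey, genes grouped by class and ordered by Ad-GFP level within it. Kifc3, Kif1c, Kif5b and Kif1a stand highest, while every mitotic kinesin lies under 6 FPKM. Libraries at 0 FPKM and the 2 genes at 0 throughout are not drawn.

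Most mitotic kinesins fell in Ad-Cre. Of the 13 tested, 11 fell and 0 rose, against a background of 20.5% lower over all genes tested. The 2 that did not pass were Kif20b and Kif23, both genes of cytokinesis. The median log2 fold change of the 13 was -0.72, against a median of 0.0041 over all genes tested. In 10 of the 13 the Ad-Cre libraries all lay below the Ad-GFP libraries, which held for 18.2% of all genes tested. The counts behind these values were small, down to 19 in a library. Kifc1 and Kifc5b are near copies. With their counts summed, a choice made after seeing the data, 10 of 12 mitotic kinesins fell. These are bulk libraries, so fewer dividing cells and less transcript per dividing cell cannot be told apart.

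**Figure D2:**
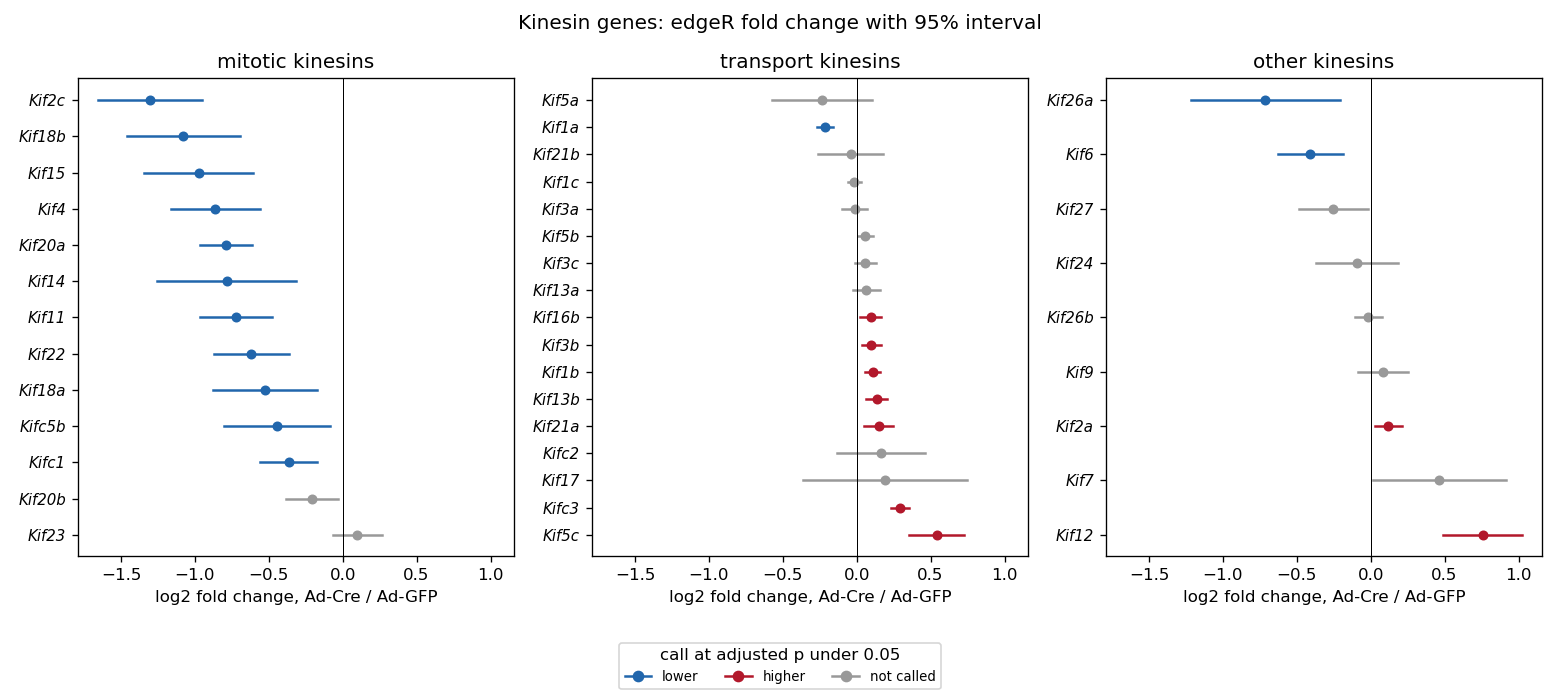
Fold change of each of the 39 tested kinesin genes (log2, Ad-Cre over Ad-GFP) with its 95% interval, in 3 panels by class, ordered from lowest to highest, blue for genes called lower, red for higher and grey for not called. Mitotic kinesins run from -1.31 to 0.10, and transport kinesins lie within a narrow band, from -0.23 to 0.54.

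Most mitotic kinesins hold the same short word in their RefSeq promoter windows. Many late cell cycle promoters carry a cell cycle genes homology region (CHR), here searched as TTTGAA or TTCGAA on either strand, often with CCAAT boxes upstream. In RefSeq windows of 300 bases (GRCm38.p6; 250 before and 50 after the start), 11 of 13 mitotic kinesins held TTTGAA. These 13 are the tested mitotic kinesins without Kif20a, together with Kif2b, and the 2 without the word were Kif18a and Kif2b. It was present in 20.2% of 27025 genes with a window and in 17.9% of the 16817 of them that the deposited table also lists. Among transport kinesins 1 of 11 held TTTGAA, and among the other kinesins 2 of 9. A gene with more than 1 window was counted if any of them held the word. Some windows with the word lie wholly inside the gene as GENCODE places it. These are the windows of Kif2c, Kif14 and Kif4, that of Kif27 and the one of Kif1a that holds the word. In Kif2c and Kif14 the word begins at -103 and -228 from the RefSeq start. TTCGAA was found in 0 of the 13 mitotic, 0 of the 11 transport and 1 of the 9 other windows, against 1.8% of all genes. CCAAT was in 9 of 13 mitotic and 3 of 11 transport kinesins, against 41.1% of all genes. The near copies Kifc1 and Kifc5b have closely similar windows, and the mitotic counts of TTTGAA and CCAAT include both. An E2F-type word, TTTGGCGC, was in 2 mitotic kinesins, Kif15 and Kif18a, and in 0.585% of all genes, while TTTCCCGC was in none of the 33 kinesin genes with a window. TTCGAA reads the same on both strands, and no match of one word overlapped a match of another in the kinesin windows.

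The windows below are shown because they set members that fell (Kif11, Kif22, Kifc1) beside one that did not (Kif23) and one that rose (Kif12). Coordinates are of GRCm38.p6. Capitals mark every match to a searched word on either strand (TTCAAA and ATTGG are TTTGAA and CCAAT on the other strand), and each window ends 50 bases into the transcript.
Kif11 (chr19:37376132-37376431, plus strand): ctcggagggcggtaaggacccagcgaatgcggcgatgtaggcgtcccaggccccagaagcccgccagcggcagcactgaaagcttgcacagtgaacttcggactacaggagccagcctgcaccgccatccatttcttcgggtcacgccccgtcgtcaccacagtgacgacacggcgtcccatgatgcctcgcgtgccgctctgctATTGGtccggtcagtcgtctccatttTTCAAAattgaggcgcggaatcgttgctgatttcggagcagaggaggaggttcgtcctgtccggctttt
Kif22 (chr7:127042371-127042670, minus strand): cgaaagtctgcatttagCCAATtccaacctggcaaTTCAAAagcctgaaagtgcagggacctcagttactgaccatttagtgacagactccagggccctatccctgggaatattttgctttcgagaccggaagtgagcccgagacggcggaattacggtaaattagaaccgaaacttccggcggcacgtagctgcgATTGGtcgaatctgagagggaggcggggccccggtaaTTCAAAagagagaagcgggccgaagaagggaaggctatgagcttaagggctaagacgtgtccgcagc
Kifc1 (chr17:33890584-33890883, minus strand): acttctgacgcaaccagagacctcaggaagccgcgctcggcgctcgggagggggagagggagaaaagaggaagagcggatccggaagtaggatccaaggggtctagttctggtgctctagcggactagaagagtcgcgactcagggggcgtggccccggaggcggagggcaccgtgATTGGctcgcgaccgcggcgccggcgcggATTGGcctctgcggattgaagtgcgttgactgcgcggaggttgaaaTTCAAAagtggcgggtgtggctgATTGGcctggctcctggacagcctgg
Kif23 (chr9:61946750-61947049, minus strand): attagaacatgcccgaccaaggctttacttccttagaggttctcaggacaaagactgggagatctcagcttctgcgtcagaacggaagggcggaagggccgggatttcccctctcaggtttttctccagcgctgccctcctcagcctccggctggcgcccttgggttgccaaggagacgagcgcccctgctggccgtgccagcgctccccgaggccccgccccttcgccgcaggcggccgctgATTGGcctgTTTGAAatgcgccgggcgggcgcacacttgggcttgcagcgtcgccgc
Kif12 (chr4:63172082-63172381, minus strand): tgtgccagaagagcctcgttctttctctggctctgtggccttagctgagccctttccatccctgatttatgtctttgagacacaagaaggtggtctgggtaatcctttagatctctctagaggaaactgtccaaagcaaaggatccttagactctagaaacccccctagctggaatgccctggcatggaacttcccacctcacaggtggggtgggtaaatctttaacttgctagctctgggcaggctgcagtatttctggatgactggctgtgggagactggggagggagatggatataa
Counting from 1 at the start of the transcript and backwards from -1, the TTTGAA of Kif11 begins at -19, the nearer of the pair in Kif22 at -17, that of Kifc1 at 2 and that of Kif23 at 3. Kif12 holds no searched word. Kif23 and Kif20b, which did not pass the test, both hold TTTGAA, and Kif18a, which fell, does not. A match is a description of letters and not of a bound site.

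Kif2c and Kif18b had the lowest fold changes of the mitotic class, and Kif18a fell less. Kif2c (chromosome 4, 117159639 to 117182639, minus strand) encodes MCAK, which removes faulty microtubule attachments at kinetochores. It was at 1.23, 1.64, 1.59 and 2.13 CPM in the Ad-Cre libraries, against 4.19, 3.93, 3.84 and 4.56 CPM in the Ad-GFP libraries. Every Ad-Cre library was below every Ad-GFP library, with a log2 fold change of -1.31 ± 0.17 (SE; adjusted p = 8.8e-07), so Ad-Cre was at 40.4% of Ad-GFP, 95% interval 31.7% to 51.6%. Kif18b (chromosome 11, 102905529 to 102925124, minus strand), which shortens astral microtubules with MCAK, was at 1.62, 1.47, 1.78 and 1.81 CPM in the Ad-Cre libraries, against 2.87, 3.32, 3.25 and 4.75 CPM in the Ad-GFP libraries. The groups did not overlap even though Ad-GFP replicate 4 stood above the other Ad-GFP libraries, and the log2 fold change of -1.08 ± 0.18 (SE; adjusted p = 3.91e-05) put Ad-Cre at 47.4% of Ad-GFP. Kif18a (chromosome 2, 109280738 to 109341747, plus strand), which damps chromosome movement at the metaphase plate, was at 2.18, 1.93, 2.07 and 2.08 CPM in the Ad-Cre libraries, against 2.35, 3.15, 3.49 and 2.88 CPM in the Ad-GFP libraries. The gap between the groups was narrow, with Ad-GFP replicate 1 close to the Ad-Cre libraries. Its log2 fold change of -0.52 ± 0.17 (SE; adjusted p = 0.0163) was no longer called without Ad-GFP replicate 3 (adjusted p = 0.0706).

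Both kinesins that push spindle poles apart fell. Kif11 (chromosome 19, 37376403 to 37421859, plus strand), the tetrameric motor Eg5, was at 4.92, 4.08, 4.57 and 4.94 CPM in the Ad-Cre libraries, against 6.77, 7.52, 9.10 and 7.003 CPM in the Ad-GFP libraries. All Ad-Cre libraries were under 5 CPM and all Ad-GFP libraries above 6, a log2 fold change of -0.72 ± 0.12 (SE; adjusted p = 2.34e-05). Kif15 (chromosome 9, 122951046 to 123018733, plus strand), which shares spindle assembly with Eg5, was at 1.23, 1.64, 2.02 and 1.81 CPM in the Ad-Cre libraries, against 3.38, 3.10, 3.01 and 3.81 CPM in the Ad-GFP libraries. The groups did not overlap, and the log2 fold change of -0.97 ± 0.18 (SE; adjusted p = 9.51e-05) put Ad-Cre at 50.9% of Ad-GFP. Tpx2, which binds both motors at the spindle, fell too, with 20.9 ± 0.734 CPM in Ad-Cre and 32.6 ± 1.07 CPM in Ad-GFP (SD, n = 4 each; adjusted p = 2.15e-10).

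Kinesins bound to chromosomes also fell. Kif4 (chromosome X, 100625737 to 100727214, plus strand), a chromokinesin that condenses chromatids and sets the length of the central spindle, was at 3.30, 2.99, 3.12 and 2.27 CPM in the Ad-Cre libraries, against 5.28, 4.37, 5.61 and 5.94 CPM in the Ad-GFP libraries. The groups did not overlap (log2 fold change -0.86 ± 0.15, SE; adjusted p = 3.54e-05). Its exons share 832 bases with Pdzd11 on the other strand, and Pdzd11 was at 34.9 ± 1.47 CPM in Ad-Cre and 34.8 ± 1.43 CPM in Ad-GFP. The sources used here do not say whether counting used strand, so the reads of such pairs cannot be told apart. Kif22 (chromosome 7, 127027729 to 127042471, minus strand), the chromokinesin Kid that pushes chromosome arms to the metaphase plate, was at 4.42, 3.36, 4.37 and 4.30 CPM in the Ad-Cre libraries, against 6.71, 6.31, 5.50 and 6.63 CPM in the Ad-GFP libraries. The Ad-Cre libraries were all lower, Ad-Cre replicate 2 most, with a log2 fold change of -0.62 ± 0.12 (SE; adjusted p = 0.000262). Cenpe, the kinetochore kinesin whose symbol lies outside the family naming used here and which was therefore counted with the partners below, was called lower as well (log2 fold change -0.65; named after its value was seen).

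The kinesins of the midzone and of cytokinesis did not move together. Kif20a, encoding MKLP2, which carries the chromosomal passenger complex to the central spindle, was at 7.72, 7.11, 6.68 and 7.61 CPM in the Ad-Cre libraries, against 13.1, 12.2, 12.8 and 12.3 CPM in the Ad-GFP libraries. With close replicates and no overlap, it had the smallest p of the class, with a log2 fold change of -0.79 ± 0.085 (SE; adjusted p = 3.66e-08). Its exons share 1271 bases with Cdc23 on the other strand, and Cdc23 was at 61.3 ± 1.499 CPM in Ad-Cre and 58.7 ± 2.14 CPM in Ad-GFP and not called. Kif14 (chromosome 1, 136466343 to 136531511, plus strand), which recruits citron kinase to the midbody, was at 1.063, 0.925, 1.92 and 1.09 CPM in the Ad-Cre libraries, against 2.24, 1.94, 2.19 and 2.25 CPM in the Ad-GFP libraries. Ad-Cre replicate 3 lay close to the lowest Ad-GFP library and the other 3 near 1 CPM, with a log2 fold change of -0.79 ± 0.23 (SE; adjusted p = 0.00772). Kif20b (chromosome 19, 34922361 to 34975745, plus strand), MPP1 of the midbody, was at 9.18, 8.83, 10.7 and 9.11 CPM in the Ad-Cre libraries, against 10.6, 11.2, 11.2 and 10.6 CPM in the Ad-GFP libraries. Ad-Cre replicate 3 fell among the Ad-GFP libraries and the other 3 lay below them. Its log2 fold change of -0.21 ± 0.086 (SE; adjusted p = 0.0583) missed the threshold, and it passed without Ad-Cre replicate 3, with upper-quartile factors and among genes averaging 5 CPM or more (adjusted p = 0.0205, 0.0378 and 0.0415). On the scales log2(FPKM + 1) and log2(FPKM + 0.1) its fold change was -0.039 and -0.057. Its unadjusted 95% interval was -0.38 to -0.029 on the log2 scale.

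Kif23 (chromosome 9, 61915905 to 61946774, minus strand) was the one tested mitotic kinesin with a positive fold change. It encodes MKLP1, which forms centralspindlin with the protein of Racgap1. It was at 11.3, 12.7, 12.5 and 12.1 CPM in the Ad-Cre libraries, against 9.92, 11.9, 11.6 and 11.9 CPM in the Ad-GFP libraries. The groups overlapped, and the log2 fold change of 0.10 ± 0.081 (SE; adjusted p = 0.344) had a 95% interval of -0.066 to 0.27, which lies above the intervals of the 11 called members. Without Ad-GFP replicate 1, its lowest library, the log2 fold change was 0.038 (adjusted p = 0.749). Per length it was the most abundant mitotic kinesin in Ad-Cre, at 4.51 ± 0.257 FPKM in Ad-Cre and 4.21 ± 0.469 FPKM in Ad-GFP (SD, n = 4 each). Racgap1, named after its value was seen, was at 8.46 ± 1.48 CPM in Ad-Cre and 10.9 ± 1.253 CPM in Ad-GFP and fell (log2 fold change -0.37 ± 0.11, SE; adjusted p = 0.00988).

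The minus-end motors had the smallest fold changes among the called members. Kifc1 (chromosome 17, 33875659 to 33890661, minus strand), which focuses spindle poles and clusters extra centrosomes, was at 9.23, 8.12, 7.31 and 9.24 CPM in the Ad-Cre libraries, against 10.7, 9.84, 11.7 and 11.4 CPM in the Ad-GFP libraries. All Ad-Cre libraries were below all Ad-GFP libraries (log2 fold change -0.37 ± 0.094, SE; adjusted p = 0.00308; 77.6% of Ad-GFP). Kifc5b (chromosome 17, 26917091 to 26932583, plus strand), its near copy, was at 2.13, 1.98, 2.69 and 2.22 CPM in the Ad-Cre libraries, against 3.67, 3.32, 2.48 and 2.75 CPM in the Ad-GFP libraries. The groups overlapped, and the log2 fold change of -0.44 ± 0.17 (SE; adjusted p = 0.0433) was called narrowly. Kifc5b lost its call in 10 of 17 alternatives, among them leaving out Ad-GFP replicate 1 or 2 or Ad-Cre replicate 1, 2 or 4 (adjusted p = 0.158, 0.113, 0.0818, 0.114 and 0.0801). Of all 50-base words in the Kifc1 transcripts, 38.6% also occur in Kifc5b, so the split of reads between the copies is uncertain. With their counts summed, a choice made after seeing the data, the log2 fold change was -0.38 (adjusted p = 0.000286).

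**Figure D3:**
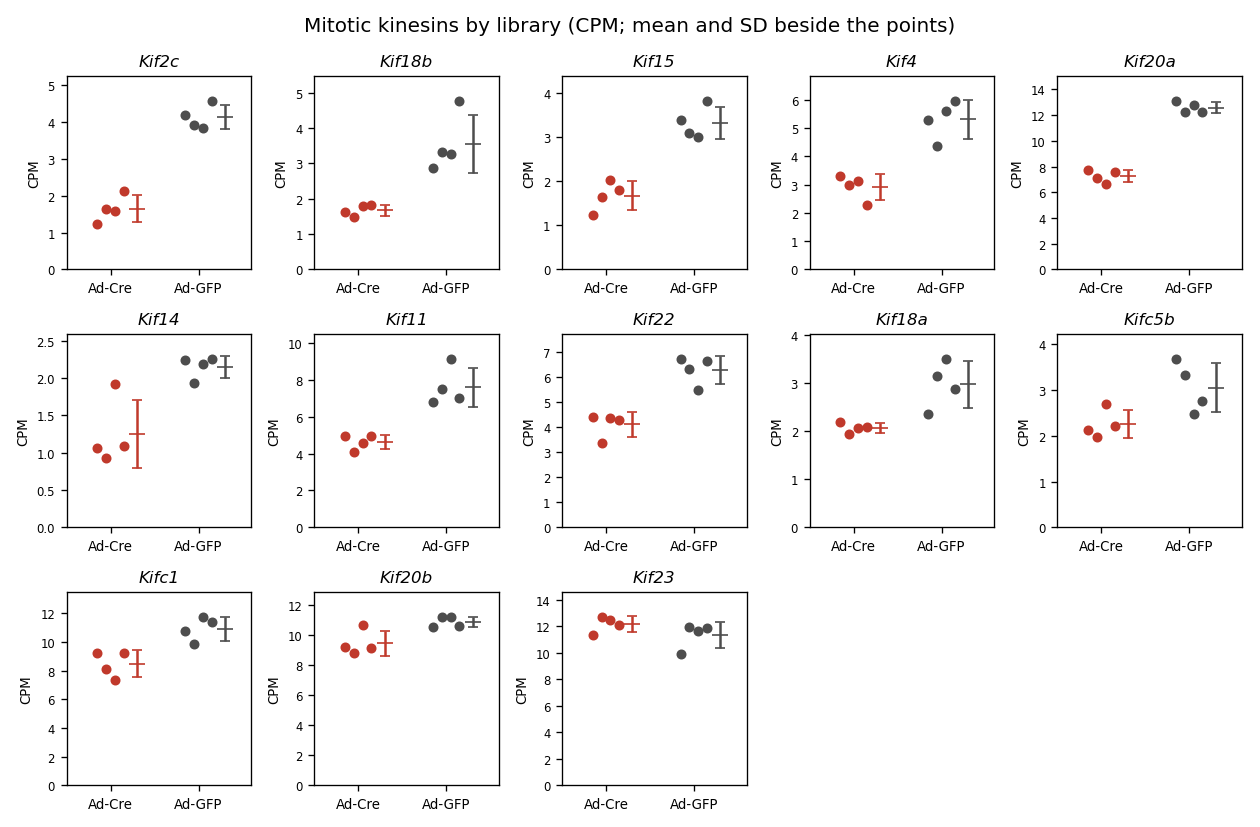
CPM of the 13 tested mitotic kinesins in each library, Ad-Cre in red on the left and Ad-GFP in grey on the right, with the mean and SD beside the 4 points of a group and axes starting at 0. Groups are apart in the first 9 panels and in Kifc1, and overlap in Kifc5b, Kif20b and Kif23.

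Genes that work with the mitotic kinesins moved the same way. Of 29 partners in the spindle, the passenger complex and the checkpoint, 27 fell and 1 rose. Their median on the log2 scale was -0.75. Among all genes tested, 20.5% were lower and 19.8% higher. Anln, the anillin gene of the contractile ring, was at 55.4% of Ad-GFP (20.1 ± 2.65 CPM in Ad-Cre and 36.2 ± 1.38 CPM in Ad-GFP; SD, n = 4 each). The riser was Numa1, the pole-focusing protein that also fills interphase nuclei, at 111%. Of 22 proliferation markers 19 fell and 0 rose (median -0.70), with Mki67 at 54.3%, Top2a at 54.4% and Mcm7 at 87.9% of Ad-GFP. Both lists were chosen with earlier results of these data known, so their counts are not independent support.

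Endothelial, macrophage and mural markers were also lower in the Ad-Cre libraries. The background for these counts is again 20.5% lower and 19.8% higher over all genes tested. Of 14 tested endothelial markers 14 fell, their median log2 fold change was -0.99, and their summed level was 74.0 to 86.8 CPM in the Ad-Cre libraries and 158 to 165 CPM in the Ad-GFP libraries. The most abundant of them in CPM were Cdh5 and Pecam1. Of 16 macrophage and leukocyte markers 12 fell (median -0.34), summing to 294 to 305 CPM in the Ad-Cre libraries and 338 to 391.7 CPM in the Ad-GFP libraries, with Lyz2 and Csf1r at the top. Of 6 mural markers, Mcam and Notch3 the most abundant, 4 fell (summed level 232 to 245 CPM in the Ad-Cre libraries and 265 to 279 CPM in the Ad-GFP libraries). Epithelial markers went both ways, 9 higher and 6 lower of 18. None of the markers in these 4 lists was at 0 in all libraries. The part of these cells in the fall of the mitotic kinesins was not tested.

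The transport kinesins showed small differences, and more rose than fell. Of 17 tested, 7 rose and 1 fell, against 19.8% and 20.5% over all genes tested. Their median log2 fold change was 0.094, and 5 of the 7 rises put Ad-Cre between 107% and 111% of Ad-GFP. Kifc3, Kif5c, Kif1b, Kif13b, Kif3b, Kif21a and Kif16b rose, and Kif1a fell. On log2(FPKM + 1), with a floor on mean FPKM that left 14 of the 17, limma called Kif1a lower and 3 genes higher. Of the 7 risers only Kifc3 and Kif5c were among these 3, and the third was Kif3c (adjusted p = 0.0491). Kif1b, Kif13b, Kif3b, Kif16b and Kif21a were not called there (adjusted p = 0.0915, 0.118, 0.12, 0.199 and 0.541).

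Kifc3 (chromosome 8, 95099828 to 95202812, minus strand), a minus-end motor that anchors microtubules at adherens junctions, was the most abundant kinesin per length, at 117 ± 3.99 FPKM in Ad-Cre and 95.6 ± 4.36 FPKM in Ad-GFP (SD, n = 4 each). It was at 299, 275, 279.8 and 287 CPM in the Ad-Cre libraries, against 229.8, 226, 231 and 245 CPM in the Ad-GFP libraries. All Ad-Cre libraries exceeded all Ad-GFP libraries by a wide margin relative to their spread, with a log2 fold change of 0.29 ± 0.028 (SE; adjusted p = 5.23e-09).

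Conventional kinesin, the main plus-end motor for organelles and vesicles, has 3 heavy chain genes that differed in their behaviour. Kif5c (chromosome 2, 49619298 to 49774778, plus strand), best known from neurons, was at 18.1, 15.6, 16.4 and 19.4 CPM in the Ad-Cre libraries, against 13.3, 9.57, 13.2 and 11.8 CPM in the Ad-GFP libraries. Every Ad-Cre library was higher, a log2 fold change of 0.54 ± 0.090 (SE; adjusted p = 2.92e-05), at 145% of Ad-GFP. Kif5b, the widely expressed chain, was at 353, 363, 369.9 and 365 CPM in the Ad-Cre libraries, against 365, 339.7, 339.9 and 349 CPM in the Ad-GFP libraries. The groups overlapped through Ad-GFP replicate 1, and the log2 fold change of 0.057 ± 0.025 (SE; adjusted p = 0.065) missed the threshold. It was called without Ad-GFP replicate 1 (adjusted p = 0.0135) or Ad-Cre replicate 1 (0.0347). Kif5a, the neuronal chain, was low, at 3.03 ± 0.235 CPM in Ad-Cre and 3.58 ± 0.816 CPM in Ad-GFP (SD, n = 4 each; adjusted p = 0.275). Per length Kif5b made most of the conventional kinesin, at 67.2 ± 2.33 FPKM in Ad-Cre and 64.1 ± 2.13 FPKM in Ad-GFP, while Kif5c was at 2.52 ± 0.242 FPKM in Ad-Cre and 1.76 ± 0.253 FPKM in Ad-GFP.

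The kinesin-3 genes, whose motors carry vesicles and lysosomes, parted in direction. Kif1a (chromosome 1, 93015464 to 93101951, minus strand), the synaptic vesicle precursor motor of neurons, was abundant in these samples, at 41.1 ± 1.46 FPKM in Ad-Cre and 49.0 ± 0.989 FPKM in Ad-GFP (SD, n = 4 each). It was at 273, 270.0, 287 and 260.4 CPM in the Ad-Cre libraries, against 311, 319, 312 and 321 CPM in the Ad-GFP libraries. All Ad-Cre libraries were lower, and the log2 fold change of -0.21 ± 0.026 (SE; adjusted p = 3.03e-07) made it the only transport kinesin called lower. Kif1b (chromosome 4, 149176319 to 149307693, minus strand), which carries mitochondria and synaptic cargo, was at 214, 215, 222 and 221 CPM in the Ad-Cre libraries, against 201, 199, 199.9 and 209.8 CPM in the Ad-GFP libraries. The groups did not overlap, but the difference was small, a log2 fold change of 0.11 ± 0.025 (SE; adjusted p = 0.00114). Kif1c, a motor of Golgi vesicles and of integrin cargo, was at 376, 362, 377 and 373 CPM in the Ad-Cre libraries, against 385, 377, 365 and 378 CPM in the Ad-GFP libraries. Its groups overlapped, and its interval was -0.062 to 0.031 on the log2 scale.

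Among the remaining kinesin-3 genes, Kif13b (chromosome 14, 64647265 to 64809617, plus strand), which binds the polarity protein DLG1, was at 75.9, 71.1, 74.8 and 72.8 CPM in the Ad-Cre libraries, against 65.7, 66.4, 68.3 and 67.8 CPM in the Ad-GFP libraries. It was higher in every Ad-Cre library (log2 fold change 0.13 ± 0.034, SE; adjusted p = 0.0028). Kif16b (chromosome 2, 142617474 to 142901531, minus strand), the early endosome motor, was at 79.5, 77.6, 81.3 and 79.0 CPM in the Ad-Cre libraries, against 75.4, 70.9, 77.2 and 73.9 CPM in the Ad-GFP libraries. The groups were separated by less than 1 CPM, and the log2 fold change of 0.094 ± 0.034 (SE; adjusted p = 0.0301) was lost in 10 of 19 alternatives. Those include leaving out Ad-GFP replicate 2 or 4 (adjusted p = 0.126 and 0.0589) and Ad-Cre replicate 1, 3 or 4 (0.0505, 0.0856 and 0.052). Kif13a, a recycling endosome motor, was at 44.0 ± 1.99 CPM in Ad-Cre and 42.0 ± 1.46 CPM in Ad-GFP (SD, n = 4 each) and not called.

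Kinesin-2 carries intraflagellar transport trains into the primary cilium. Kif3b (chromosome 2, 153291413 to 153333390, plus strand) was at 118, 109, 117 and 115 CPM in the Ad-Cre libraries, against 105, 108, 109 and 107 CPM in the Ad-GFP libraries. Its groups did not overlap (log2 fold change 0.10 ± 0.030, SE; adjusted p = 0.00983). Its partner chain Kif3a was at 55.7 ± 2.29 CPM in Ad-Cre and 56.2 ± 2.55 CPM in Ad-GFP (SD, n = 4 each; interval -0.10 to 0.072 on the log2 scale), and the alternative chain Kif3c was at 99.8 ± 1.30 CPM in Ad-Cre and 95.8 ± 4.97 CPM in Ad-GFP, both not called. The accessory subunit gene Kifap3, named after its value was seen, rose to 110.4% of Ad-GFP. Kif17, the homodimeric kinesin-2, was barely present, at 0.942 ± 0.128 CPM in Ad-Cre and 0.822 ± 0.147 CPM in Ad-GFP. Of 25 intraflagellar transport genes 11 rose and 1 fell, against 19.8% and 20.5% over all genes tested. Dync2h1, the retrograde motor heavy chain, was at 129% and Ift122 at 121% of Ad-GFP. Wdr35, the one that fell, was at 94.1%.

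Kif21a (chromosome 15, 90933276 to 91049948, minus strand), a kinesin that restrains microtubule growth at the cell cortex, was at 45.2, 46.1, 45.6 and 49.8 CPM in the Ad-Cre libraries, against 41.1, 45.4, 42.9 and 39.1 CPM in the Ad-GFP libraries. The groups overlapped, as Ad-GFP replicate 2 exceeded Ad-Cre replicate 1, and the log2 fold change of 0.15 ± 0.048 (SE; adjusted p = 0.0157) was lost without Ad-GFP replicate 1 or 4 or Ad-Cre replicate 4 (adjusted p = 0.0525, 0.0716 and 0.0811). Its FPKM spread more than its counts, at 9.19, 9.12, 9.81 and 10.3 FPKM in the Ad-Cre libraries, against 7.58, 10.8, 10.2 and 7.69 FPKM in the Ad-GFP libraries. Kif21b was at 6.78 ± 0.376 CPM in Ad-Cre and 6.97 ± 0.842 CPM in Ad-GFP and the minus-end motor gene Kifc2 at 4.43 ± 0.627 CPM in Ad-Cre and 3.92 ± 0.609 CPM in Ad-GFP (SD, n = 4 each), and neither was called.

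**Figure D4:**
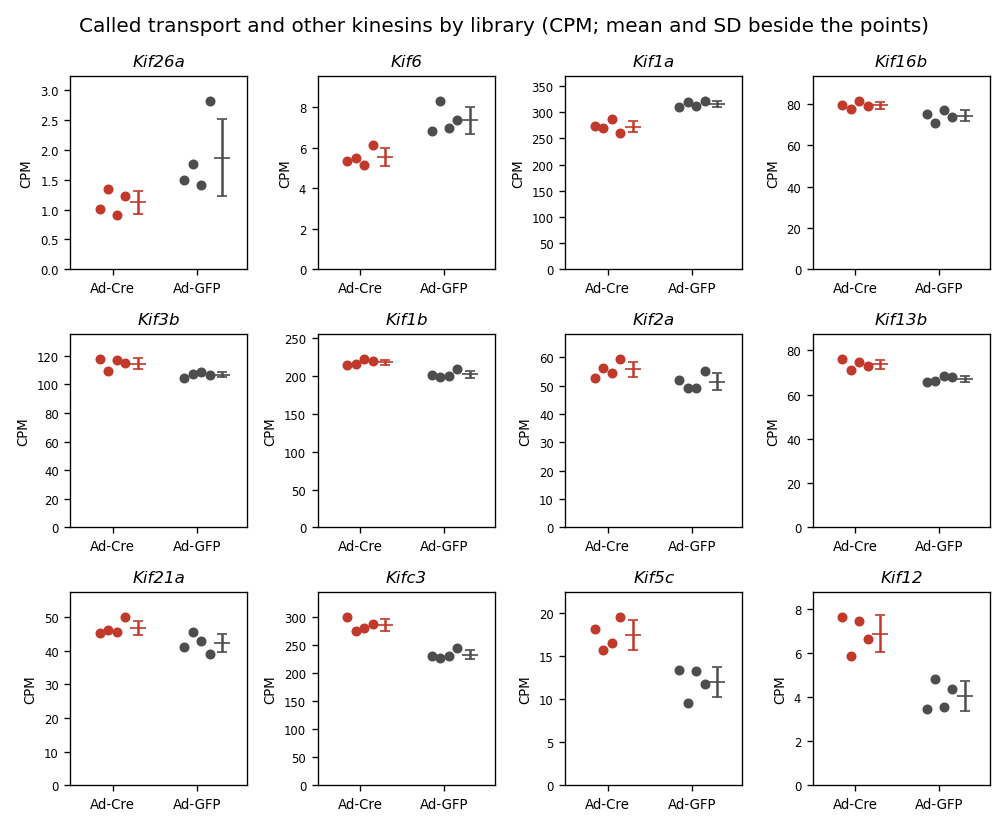
CPM of the 12 transport and other kinesins that were called and met the naming rule, in each library, Ad-Cre in red on the left and Ad-GFP in grey on the right, with mean and SD beside the points and axes starting at 0. Kif26a, Kif6 and Kif1a are lower in Ad-Cre, and Kif5c and Kif12 are the 2 largest rises.

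Among the 9 other kinesins tested, 2 rose and 2 fell, which is near the background of 19.8% and 20.5%. Kif12 (chromosome 4, 63165630 to 63172131, minus strand), an epithelial kinesin of kidney and liver, had the largest rise of the 39 tested kinesins. It was at 7.61, 5.85, 7.45 and 6.62 CPM in the Ad-Cre libraries, against 3.44, 4.81, 3.55 and 4.38 CPM in the Ad-GFP libraries. No Ad-GFP library reached an Ad-Cre library, and the log2 fold change of 0.76 ± 0.13 (SE; adjusted p = 4.13e-05) put Ad-Cre at 169% of Ad-GFP, 95% interval 140.4% to 203%. Kif6 (chromosome 17, 49615136 to 49909847, plus strand), a motile cilia kinesin, was at 5.37, 5.51, 5.14 and 6.16 CPM in the Ad-Cre libraries, against 6.82, 8.30, 6.97 and 7.38 CPM in the Ad-GFP libraries. It was lower in every Ad-Cre library (log2 fold change -0.41 ± 0.11, SE; adjusted p = 0.00379). Kif26a (chromosome 12, 112146208 to 112181747, plus strand), an atypical kinesin without ATPase activity that dampens growth factor signalling, was at 1.01, 1.35, 0.913 and 1.22 CPM in the Ad-Cre libraries, against 1.49, 1.77, 1.42 and 2.81 CPM in the Ad-GFP libraries. The groups did not overlap, but Ad-GFP replicate 4 stood high, and the log2 fold change of -0.71 ± 0.24 (SE; adjusted p = 0.0219) was lost without it (log2 fold change -0.46, adjusted p = 0.156) and without Ad-Cre replicate 1 (0.0507) or 3 (0.0683).

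Kif2a (chromosome 13, 106958996 to 107022126, minus strand), a depolymerase used both at spindle poles and at the base of cilia, was counted with the others for its interphase roles. It was at 52.8, 56.4, 54.5 and 59.3 CPM in the Ad-Cre libraries, against 51.9, 49.3, 49.2 and 55.3 CPM in the Ad-GFP libraries. The groups overlapped, and the log2 fold change of 0.12 ± 0.045 (SE; adjusted p = 0.0339) did not hold: 8 of 19 alternatives lost the call and in 2 more, both FPKM scales, the sign turned (-0.0065 on log2(FPKM + 1)). The call was lost without Ad-GFP replicate 1, 2 or 3 (adjusted p = 0.0563, 0.114 and 0.122) and without Ad-Cre replicate 2 or 4 (0.0702 and 0.146). Its exons share 1229 bases with Dimt1 on the other strand, and Dimt1 was at 11.4 ± 0.912 CPM in Ad-Cre and 12.2 ± 0.696 CPM in Ad-GFP.

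Kif7, the Hedgehog regulator at the tip of the cilium, was at 2.52, 1.81, 1.54 and 1.72 CPM in the Ad-Cre libraries, against 1.147, 1.33, 1.48 and 1.501 CPM in the Ad-GFP libraries. All Ad-Cre libraries were higher, and the log2 fold change of 0.46 ± 0.22 (SE; adjusted p = 0.0941) missed the threshold. In the Hedgehog list 2 of 5 tested genes rose and 2 fell, with Smo at 99.4 ± 4.30 CPM in Ad-Cre and 83.8 ± 1.08 CPM in Ad-GFP and Ptch1 at 51.3 ± 1.95 CPM in Ad-Cre and 42.8 ± 0.836 CPM in Ad-GFP the risers. Over all genes tested 19.8% rose and 20.5% fell. The 2 that fell in this list, named after their values were seen, were Gli3 and Hhip. Gli3 was at 33.8 CPM in Ad-Cre and 38.1 CPM in Ad-GFP. Hhip, a Hedgehog target at very low level, was at 0.0848 CPM in Ad-Cre and 0.737 CPM in Ad-GFP. At that level Hhip passed the filter on low counts only through the Ad-GFP libraries, so its call depends on that selection. Kif27, a close relative of Kif7, was at 6.02 ± 0.709 CPM in Ad-Cre and 7.16 ± 0.728 CPM in Ad-GFP (SD, n = 4 each; adjusted p = 0.0778) and was called lower without Ad-GFP replicate 1 (adjusted p = 0.0482) or Ad-Cre replicate 4 (0.0363). Kif24, which restrains cilium formation at the mother centriole, was at 4.55 ± 0.651 CPM in Ad-Cre and 4.82 ± 0.584 CPM in Ad-GFP, Kif9 at 12.4 ± 0.488 CPM in Ad-Cre and 11.7 ± 1.26 CPM in Ad-GFP and Kif26b at 63.3 ± 1.93 CPM in Ad-Cre and 64.1 ± 5.01 CPM in Ad-GFP, and none of the 3 was called. Exons of Kif3c, Kif7 and Kif26b also overlap those of another gene on the opposite strand, by 2617, 877 and 909 bases.

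The microtubule tracks and the other motors were tested in the same fit, in which 20.5% of all genes tested were lower and 19.8% higher. Of 16 tested tubulin genes 12 fell and 0 rose (median -0.28 on the log2 scale), and Tubb1 was at 0. Tubb5 was at 501 ± 6.31 CPM in Ad-Cre and 636 ± 7.31 CPM in Ad-GFP and Tuba1b at 201 ± 3.52 CPM in Ad-Cre and 294 ± 3.07 CPM in Ad-GFP (SD, n = 4 each), and tubulin genes are near copies of each other, so reads may be split between them. Of 27 cytoplasmic dynein and dynactin genes 6 rose and 3 fell (median 0.025), with the heavy chain gene Dync1h1 at 95.7% of Ad-GFP and the adaptor genes Bicd2 at 91.3% and Bicd1 at 115%. Of 21 kinesin light chains and cargo adaptors 6 rose and 3 fell (median 0.047). The counts of this list and of the dynein list are near the shares over all genes tested. Mapk8ip1, the JIP1 adaptor gene of conventional kinesin, rose to 143%, and Spag9, the abundant adaptor gene JIP4, to 109%.

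**Figure D5:**
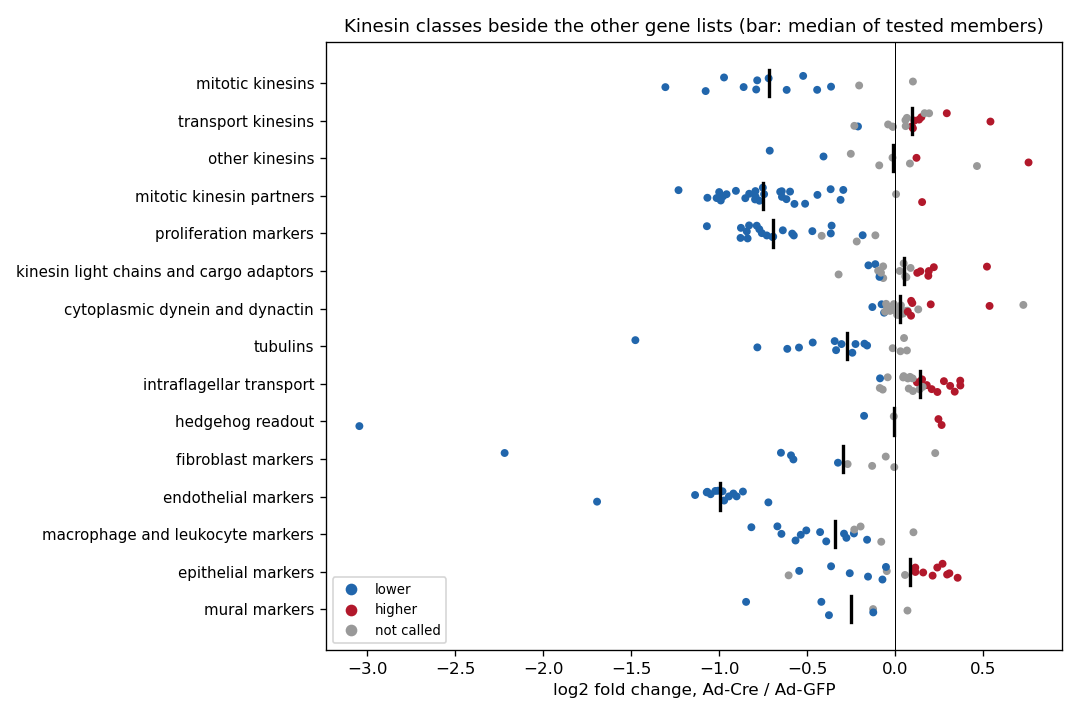
Log2 fold change (Ad-Cre over Ad-GFP) of every tested gene in the 3 kinesin classes and in the other lists, 1 point per gene, blue for called lower, red for called higher and grey for not called, with the list median as a black bar. The medians of mitotic kinesins (-0.72), their partners (-0.75) and proliferation markers (-0.70) lie together, and that of transport kinesins is 0.094.

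The authors' deposited table gave the same sign for every kinesin it called. Of the 11 mitotic falls, 9 were also called at an FDR under 0.05 in the authors' deposited table, and of the 7 transport rises 6 were. Kif18a and Kifc5b were the mitotic genes without a call there.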

How the data were processed

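RNA sequencing of 8 libraries was deposited as 1 table of 22322 Ensembl genes. It holds whole-number read counts, deposited by the authors with no stated counting tool, and the authors' FPKM values and group means. It also holds the authors' deposited log2 fold change and the authors' deposited p-value and FDR, whose test no source used here names. The submitters' processing notes name GRCm38 and mm10. Possible rounding of estimated counts was not tested.

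Counts were fitted with edgeR 4.0.16 (R 4.3.3): filterByExpr (13337 genes), TMM factors (0.992 to 1.01), the quasi-likelihood F-test without a block, two-sided, and Benjamini-Hochberg adjustment over all genes. CPM use TMM-scaled totals, SDs are over 4 libraries, and the SE is the absolute log2 fold change over the square root of F. The precision depends on the counts, 15879244 to 23940043 per library, and on the spread among replicates. The biological coefficient of variation was 2.89%. On simulated data with 200 of 13337 genes changed, the Ad-Cre against Ad-GFP fit recovered 71.6% of 67 genes changed 1.25-fold, 83.1% of 65 changed 1.5-fold and 95.4% of 65 changed 2-fold (those past the filter). Unchanged genes made up 9.89% of its calls, more than the threshold of 0.05 aims at. In the data 40.3% of genes were called, far more than were changed in the simulation. Neither the recovery nor the share of unchanged genes can therefore be carried over to the data. Replicates of a group differed by more than sampling noise (chi-square per degree of freedom 1.81 to 3.26). Coordinates are from GENCODE M21 (GRCm38) and promoters from RefSeq, which matched 33 of the 43 genes.

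The genes, classes and lists were chosen with earlier results of these data known. Named with all libraries are tested mitotic kinesins, called others with a mean of at least 5 CPM or a 1.5-fold change, and the 2 uncalled others of highest FPKM. From each other list the 2 genes of smallest p and the most abundant one are named, or the 2 most abundant markers. Outside this rule are Kif7 (given for all libraries), Cenpe, Racgap1, Kifap3, Gli3, Hhip, fibroblast markers given besides Fn1 and Vim, and opposite-strand genes. These were named after their values were seen. Protein motifs were not analysed here. One overlap between a kinesin gene and a gene on the opposite strand is not reported here. Alternatives were other scaling factors, filters, DESeq2 1.42.0, limma 3.58.1 (voom, and log2 FPKM with a pseudocount of 1 or 0.1 and a mean FPKM of at least 1), thinning, a replicate block, each library left out in turn, and moving Kif2a.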

Additional observations from a re-analysis of the deposited data

Results flagged for a closer look

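In 4 of 110 groups of 4 libraries examined, 1 library stood far from the other 3, where chance alone gives about 1 in 20. Kif14 in Ad-Cre replicate 3 was at 1.92 CPM, and the other Ad-Cre libraries were at 0.925 to 1.09. Kif22 in Ad-Cre replicate 2 was at 3.36 CPM, and the others at 4.30 to 4.42. Kif23 in Ad-GFP replicate 1 was at 9.92 CPM, and the others at 11.6 to 11.9. Kif3c in Ad-GFP replicate 2 was at 88.4 CPM, and the others at 97.3 to 98.9. Kif14 and Kif22 kept their calls without the library named, and Kif23 and Kif3c were not called with or without it.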

How the results depend on the processing

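Against 11 mitotic falls, 5 of 6 tested fell with a filter of at least 5 CPM (4 of the 11, and Kif20b), and 5 of 8, all among the 11, on either FPKM scale. The mitotic median was -0.51 with that filter, -0.37 on log2(FPKM + 1) and -0.49 on log2(FPKM + 0.1). Against 7 transport rises, 3 genes rose on either FPKM scale (Kifc3 and Kif5c of the 7, and Kif3c). Among other kinesins, the 2 rises became 1 with upper-quartile factors, DESeq2, the filter of at least 5 CPM, either FPKM scale or Kif2a moved to the mitotic class (which then had 1 rise), and the 2 falls became 1 with that filter and either FPKM scale. The 5370 calls over all genes became 3530 on log2(FPKM + 1) and 3520 on log2(FPKM + 0.1), where 11679 genes were tested. These filters leave fewer genes; other causes were not tested. With all libraries thinned to the depth of the smallest, there were 11 mitotic falls, 7 transport rises and 1 transport fall. Over all genes that setting gave 5092 calls of 13190 tested. Leaving out each library gave 10 to 12 mitotic falls, 5 to 7 transport rises, 1 transport fall, 1 to 2 rises and 1 to 3 falls among other kinesins, and 4816 to 5084 calls over all genes.

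Signs turned for Kif13a (-0.016 and -0.017 on the FPKM scales), Kif2a (-0.0065 and -0.0068 there), Kif21b (0.031 without Ad-GFP replicate 3; range with 1 library left out -0.091 to 0.031), Kif3a (0.010 without Ad-GFP replicate 1, 0.0042 without Ad-Cre replicate 4; range -0.040 to 0.010) and Kif26b (0.0029 thinned, 0.00022 and 0.028 without Ad-GFP replicates 2 and 4, 0.0026 without Ad-Cre replicate 1; range -0.057 to 0.028). Of these only Kif2a had been called.

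The labels state no pairing, and deviations of same-numbered libraries correlated at 0.0467, 0.0971, 0.0115 and -0.0131, so the numbers were not taken as pairs. With the replicate block 10 mitotic kinesins fell and 7 transport kinesins rose, and 5390 genes were called; Kifc5b lost its call (adjusted p = 0.0591). Kif19a and Kif19b had too few counts to be tested.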
